A study of Mus musculus with 4 samples.

Results

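Immediate early genes are switched on within a short time of a stimulus without new protein synthesis, and AP-1 is the dimeric transcription factor that several of them encode. A group of 38 such genes was examined here out of 31053 genes measured, chosen by name: the 7 Fos and Jun family subunits of AP-1, other early transcription factors, and feedback regulators of signalling, mRNA stability and growth arrest that are induced with them. The rule itself uses gene names and no expression value. All 38 were found by symbol, and each was followed across 3 epithelial classes and 4 libraries.

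Growth factors, stress and calcium signals reach these genes through kinase cascades that act on factors already bound at their promoters, such as CREB at cAMP response elements and serum response factor at CArG boxes. Fos proteins pair with Jun proteins to form AP-1, and the mRNAs of most members decay quickly. The Dusp phosphatases, Zfp36, Socs3 and Rgs2 then dampen the signal. In tissue that is enzymatically dissociated into single cells, immediate early genes and heat shock genes are known to be induced by the preparation itself. In the mammary gland, basal (myoepithelial) cells surround luminal cells, which comprise secretory-lineage progenitors and hormone-sensing cells.

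The cells came from mammary epithelium of 9-week-old FVB mice that were all Tfap2cfl/fl and carried Krt5-CreERT2, a Cre recombinase made in Krt5-expressing cells and activated by 4-hydroxytamoxifen (4OHT). Mice of the control group received corn oil from 4 weeks of age, and the others received 4OHT. The labels give the course as 5 days in one field and longer in another, so no result rests on its length. Each group had 2 libraries, 1 per mouse. The floxed alleles and the Cre transgene were thus present in both groups, and 4OHT was given without a Cre-negative control.

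The 4 libraries held between 3546 and 5545 cell barcodes and between 17351950 and 22017878 unique molecular identifiers (UMIs), each standing for 1 captured mRNA molecule. Between 18 and 36 barcodes were shared by any pair of libraries, at most 0.749% of the smaller one. Cells with at least 1000 UMIs were assigned to a class from raw UMIs of gate genes: basal keratins and Acta2 against luminal keratins, then Ly6d, Fxyd2 and Gpx3 against Wfdc18, Csn3 and Ltf. This gave 7028 basal, 5629 luminal progenitor and 1168 hormone-sensing cells, with 4007 cells in no class. None of the members is a gate gene. Markers outside the gates followed the class names: 8 basal markers summed to 5571 to 7540 CPM (UMIs of a gene scaled to 1000000 UMIs of the class in that library) in basal cells and at most 277 elsewhere among the 3 classes, 8 luminal progenitor markers to 7734 to 10353 CPM in progenitors, and 8 hormone-sensing markers to 1216 to 2265 CPM in hormone-sensing cells. Progenitor markers also reached 1164 to 2600 CPM in basal cells, and the hormone-sensing marker Tnfsf11 was at 0 in all 3 classes. The hormone-sensing cells of 4OHT 1 carried 1346 CPM of fibroblast markers, against 53.5 to 243 CPM in the other libraries, so the counts of calls in that class, and the treatment values there, are also given without it.

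Throughout, values of a gene in a class are listed as CPM for corn oil 1, corn oil 2, 4OHT 1 and 4OHT 2, in that order. Tfap2c, the targeted gene, was at 389, 285, 285 and 325 CPM in basal cells. Both 4OHT libraries lay near or within the corn oil range, and the log2 difference was -0.08 (95% interval -0.68 to 0.52, adjusted p = 0.999, edgeR quasi-likelihood test). Where the counted 3′ end lies outside the floxed part of the gene, such a count does not check the deletion, and every treatment direction rests on the labels alone.

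Promoter sequence was read for 31 members with an entry in RefSeq (GRCm38.p6), over the 250 bases before the annotated start, on both strands. The cAMP response element half-site TGACG was present in 15 of the 31 members (48.4%) and in 19.8% of 27025 genes. The full palindrome TGACGTCA, which contains the half-site, was present in Btg2, Dusp1 and Maff (9.68%, against 1.77% of genes), and a CArG box in Dusp5, Egr2 and Zfp36 (9.68% against 1.62%). The AP-1 site TGANTCA was found in Zfp36l1 (3.23% against 7.82%), and TATAAA in 6 members (19.4% against 14.3%). Members' promoters had a median GC content of 64.4%, against 52.4% over all genes, and the part of base composition in these shares was not tested. A match is a stretch of letters in this window and not a measured binding site. Sites outside the window were not searched, so a motif not found here can still lie farther from the start. A set of 6 promoters is printed because their genes carry the expression patterns below: Fos, Nr4a1 and Btg2 varied together between basal cells, Rgs2 and Dusp1 were higher in basal cells, and Dusp5 was higher in progenitors. All 6 hold the half-site. Nr4a2, Egr2, Klf2 and Klf4, also higher in basal cells than in progenitors, hold it too. So do Junb and Atf3, which varied with other members in basal cells, and Btg1, higher in progenitors. Others with these patterns do not. Gadd45g, Gadd45b and Socs3, which also varied together in basal cells, had no half-site in this window. Nor did Dusp6, higher in basal cells, or Ier5 and Klf6, higher in progenitors. Each runs 5′ to 3′ on the gene's strand, with every searched motif in capitals (CGTCA is the half-site on the opposite strand).
Fos (GRCm38.p6 chr12:85473640-85473889, plus strand): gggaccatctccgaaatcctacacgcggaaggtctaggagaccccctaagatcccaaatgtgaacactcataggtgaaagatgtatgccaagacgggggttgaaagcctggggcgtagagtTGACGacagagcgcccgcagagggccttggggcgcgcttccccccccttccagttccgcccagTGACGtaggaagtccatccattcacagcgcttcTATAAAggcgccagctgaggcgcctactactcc
Nr4a1 (GRCm38.p6 chr15:101266596-101266845, plus strand): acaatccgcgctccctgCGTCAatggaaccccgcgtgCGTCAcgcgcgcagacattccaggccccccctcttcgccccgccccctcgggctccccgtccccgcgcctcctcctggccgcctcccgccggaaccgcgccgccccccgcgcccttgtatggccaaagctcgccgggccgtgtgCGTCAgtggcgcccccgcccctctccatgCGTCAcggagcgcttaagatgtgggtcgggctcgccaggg
Btg2 (GRCm38.p6 chr1:134079156-134079405, minus strand): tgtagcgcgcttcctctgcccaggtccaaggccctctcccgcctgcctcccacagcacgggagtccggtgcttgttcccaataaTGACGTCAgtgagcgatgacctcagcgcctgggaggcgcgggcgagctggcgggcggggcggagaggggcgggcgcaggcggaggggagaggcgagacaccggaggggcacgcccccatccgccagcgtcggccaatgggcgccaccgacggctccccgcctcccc
Dusp1 (GRCm38.p6 chr17:26508473-26508722, minus strand): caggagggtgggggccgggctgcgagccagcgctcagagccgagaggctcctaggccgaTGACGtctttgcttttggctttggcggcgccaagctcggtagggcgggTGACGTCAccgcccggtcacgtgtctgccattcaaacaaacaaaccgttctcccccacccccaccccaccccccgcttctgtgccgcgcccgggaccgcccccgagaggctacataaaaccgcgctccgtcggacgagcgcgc
Rgs2 (GRCm38.p6 chr1:144004150-144004399, minus strand): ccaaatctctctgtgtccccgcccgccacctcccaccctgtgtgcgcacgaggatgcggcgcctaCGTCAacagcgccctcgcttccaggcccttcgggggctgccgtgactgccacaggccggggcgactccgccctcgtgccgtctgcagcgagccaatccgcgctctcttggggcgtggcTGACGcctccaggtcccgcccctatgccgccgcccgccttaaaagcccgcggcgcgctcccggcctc
Dusp5 (GRCm38.p6 chr19:53528895-53529144, plus strand): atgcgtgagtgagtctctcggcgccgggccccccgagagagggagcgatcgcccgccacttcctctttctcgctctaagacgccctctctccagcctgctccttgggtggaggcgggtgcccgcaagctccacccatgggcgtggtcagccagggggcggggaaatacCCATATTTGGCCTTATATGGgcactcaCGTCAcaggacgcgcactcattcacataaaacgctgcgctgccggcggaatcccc
Fos carried 2 half-sites and a TATAAA at positions -33 to -28 from the start. The Nr4a1 window held 4 half-sites, all on the opposite strand. Dusp5 had 2 CArG boxes side by side at positions -82 to -63, followed by a half-site. Btg2 and Dusp1 share the full palindrome, at positions -166 to -159 and -143 to -136.

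The UMIs of all 38 members made up 0.820%, 0.975%, 1.25% and 1.31% of all UMIs in basal cells, 1.42%, 0.876%, 1.39% and 1.40% in luminal progenitors, and 0.699%, 0.581%, 0.671% and 0.791% in hormone-sensing cells. The hormone-sensing class was lowest in every library. Single cells spread widely. In basal cells of 4OHT 1 the share was 0.391% at the 10th percentile of cells, 0.957% at the median and 2.96% at the 90th percentile. Because each UMI is counted at the 3′ end of 1 molecule, CPM carries no gene-length factor. The members with the highest mean in basal cells were Ier3 at 1532 ± 240.1, Junb at 1137 ± 316 and Gadd45g at 1002 ± 533 CPM (SD, n = 4). In luminal progenitors they were Gadd45b at 1998 ± 981, Junb at 1788 ± 467 and Ier3 at 1634 ± 319 CPM. In hormone-sensing cells Junb at 884 ± 160.2, Btg1 at 732 ± 129 and Gadd45a at 723 ± 155 CPM led. Dusp2 was the lowest, with 32 UMIs in all basal cells, 4 in progenitors and 1 in hormone-sensing cells, and was the only member that did not pass the filter on low counts in the class comparisons.

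**Figure D1:**
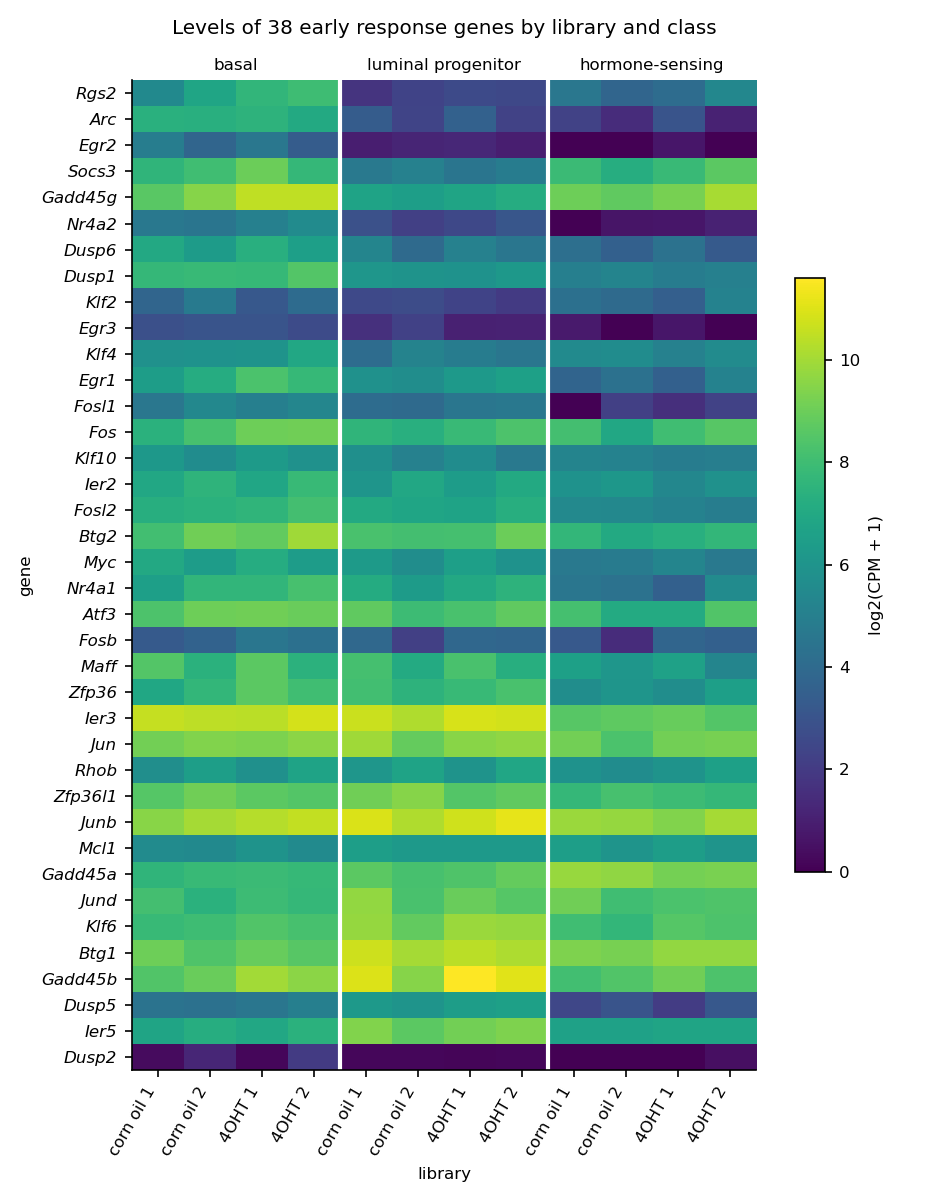
Level of each member (rows, ordered by the basal minus luminal progenitor difference, Dusp2 last) as log2(CPM + 1) in each library of the 3 classes (columns). Rgs2, Arc, Egr2, Socs3 and Gadd45g at the top are brighter in basal cells than in luminal progenitors, and Ier5, Dusp5 and Gadd45b near the bottom are brightest in luminal progenitors.

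Classes were compared within libraries on UMI sums per library and class (edgeR quasi-likelihood test, library as a block, Benjamini-Hochberg adjustment over 11135 genes, threshold 0.05). Log2 differences use normalization factors across the 12 sums and so can depart from the ratio of CPM. Between basal cells and luminal progenitors, 26 of 37 tested members differed, 15 higher in basal cells and 11 lower, beside 56.1% of all genes tested (29.5% higher and 26.6% lower). Their median log2 difference was 0.37, and that of all genes 0.04. In all 4 basal sums 12 members lay above every progenitor sum and 7 below, as did 31% and 13% of all genes. Against hormone-sensing cells 30 members differed, 26 higher in basal cells and 4 lower, beside 59.8% of all genes (32.4% and 27.3%), with medians of 1.17 and 0.08. Without overlap, 21 members were above and 3 below, beside 26.8% and 20.7% of genes. Between luminal progenitors and hormone-sensing cells 33 members differed, 28 higher in progenitors and 5 lower, beside 46.4% of all genes (24.6% and 21.9%), with medians of 1.25 and 0.02. Without overlap, 20 members were above and 5 below, beside 13.7% and 22.7% of genes. The share of members that differed between basal cells and progenitors was thus near that of all genes in the lower direction, whereas the shares higher than hormone-sensing cells were above it. Without 4OHT 1, 25 of 37 members differed between basal and hormone-sensing cells, beside 6084 of 11197 genes. Between progenitors and hormone-sensing cells 33 of 37 differed in that fit, beside 4201 of 11197 genes. The basal minus hormone-sensing calls lost without it were those of Fosb, Jun, Klf4 (0.65), Gadd45b (0.63) and Gadd45g (0.23), and the same 5 were lost without 4OHT 2.

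**Figure D2:**
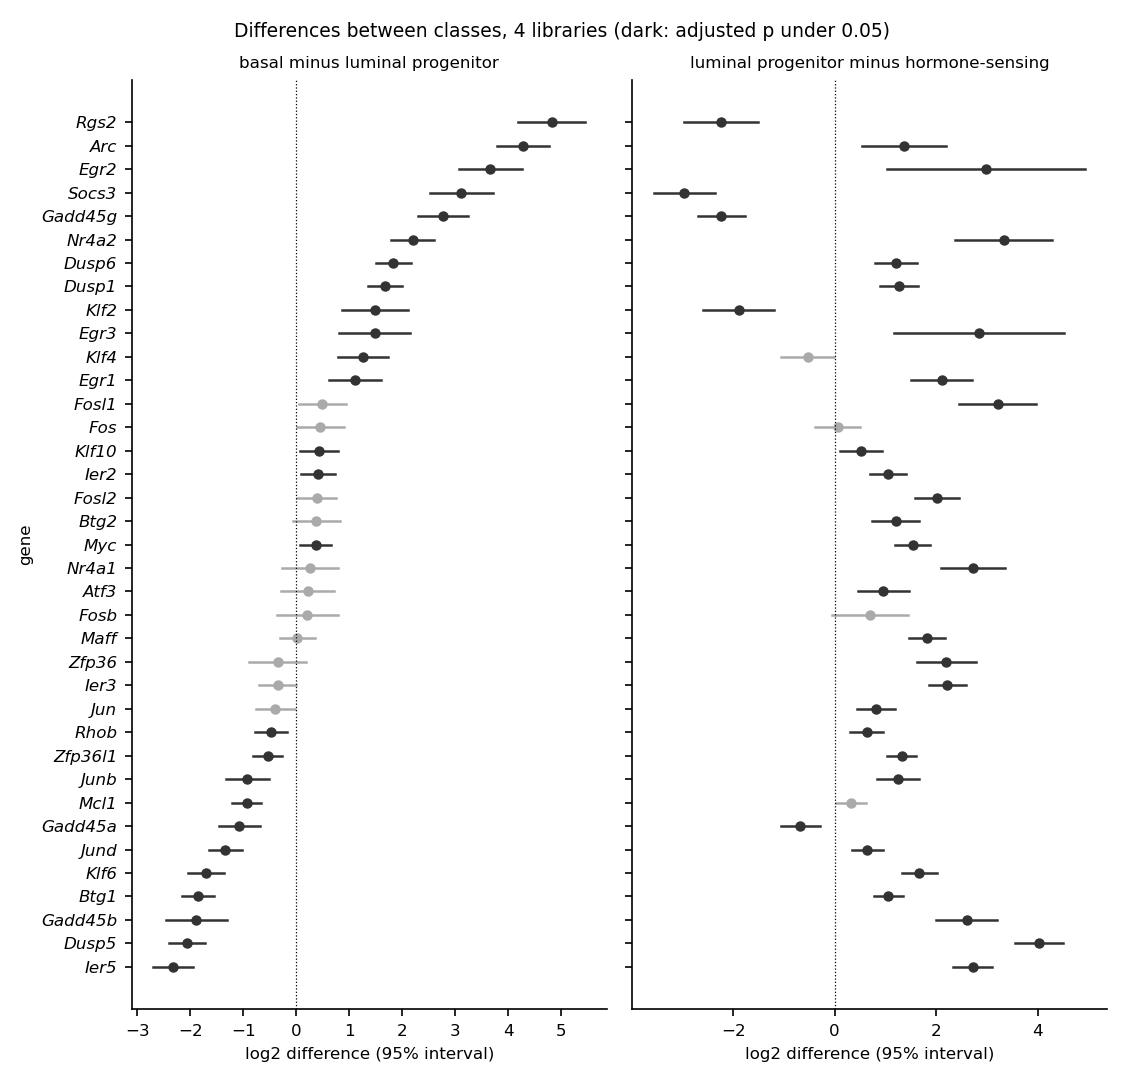
Log2 differences between classes for the 37 tested members, with 95% intervals, over 4 libraries: basal minus luminal progenitor on the left and luminal progenitor minus hormone-sensing on the right, dark where the adjusted p was under 0.05. Rgs2 at 4.82 and Ier5 at -2.32 mark the ends of the left panel, and Dusp5 at 4.02 and Socs3 at -2.96 those of the right panel.

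Among the Fos subunits, Fos and Fosb are the classical fast-induced members, and Fosl1 (Fra-1) and Fosl2 (Fra-2) are more slowly induced relatives. Fos was at 171, 298, 530.4 and 535 CPM in basal cells, 191, 159, 229 and 328 CPM in luminal progenitors and 283, 124, 266 and 389 CPM in hormone-sensing cells. The 3 ranges overlapped, and no difference between classes passed the test: basal minus progenitor was 0.45 (95% interval 0.01 to 0.90, adjusted p = 0.0787, edgeR) and basal minus hormone-sensing 0.51 (0.05 to 0.97, adjusted p = 0.0522, edgeR). Without corn oil 1, where basal Fos was lowest, these became 0.66 and 0.83 and passed. Fosb was low, at 8.65, 11.5, 22.2 and 18.4 CPM in basal cells, 14.04, 3.63, 13.7 and 12.9 CPM in progenitors and 8.48, 1.76, 12.9 and 10.6 CPM in hormone-sensing cells. Its classes overlapped, and its excess of 0.90 in basal over hormone-sensing cells (adjusted p = 0.0341, edgeR) no longer passed without corn oil 2 (0.60), 4OHT 1 (0.93) or 4OHT 2 (0.88).

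Fosl1 and Fosl2 were higher in basal cells and in luminal progenitors than in hormone-sensing cells. Fosl1 was at 22.98, 41.1, 30.99 and 38.7 CPM in basal cells and 16.1, 14.9, 22.7 and 24.3 CPM in luminal progenitors. In hormone-sensing cells it had 0, 6, 3 and 10 UMIs, where a count of 0 allows up to 2.31 CPM in corn oil 1. Its ratio of summed counts to hormone-sensing cells was 12.3 for basal cells (95% counting interval 7.82 to 20.5) and 7.33 for progenitors (4.65 to 12.3). Fosl2 was at 152, 171, 192 and 277 CPM in basal cells, 130.4, 112, 107 and 152 CPM in progenitors and 42.4, 41.2, 34.1 and 29.5 CPM in hormone-sensing cells. All 4 hormone-sensing values lay below every value of the other classes, with log2 differences of 2.40 from basal cells and 2.02 from progenitors (95% intervals 1.97 to 2.83 and 1.59 to 2.45). The basal values of Fosl2 also lay above every progenitor value, but that difference of 0.38 did not pass (adjusted p = 0.0764, edgeR).

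The Jun subunits had their highest mean levels in luminal progenitors. Jun, the main partner of Fos, was at 567, 685, 637 and 772 CPM in basal cells, 988, 465, 741 and 816 CPM in progenitors and 566, 322, 561 and 593 CPM in hormone-sensing cells. It was 0.82 higher on the log2 scale in progenitors than in hormone-sensing cells, while basal minus progenitor was -0.40 (adjusted p = 0.0658, edgeR) and became -0.68 and passed without corn oil 2. The basal excess of Jun over hormone-sensing cells, 0.42 (adjusted p = 0.0496, edgeR), no longer passed without corn oil 2 (0.21), 4OHT 1 (0.46) or 4OHT 2 (0.36). Junb was the most abundant subunit, at 748, 1054, 1253 and 1495 CPM in basal cells, 1949, 1183, 1721 and 2297 CPM in progenitors and 925, 882, 672 and 1058 CPM in hormone-sensing cells. Every progenitor value exceeded every hormone-sensing value, and Junb in progenitors was higher by 1.25 than in hormone-sensing cells and differed from basal cells by -0.93 (basal minus progenitor, adjusted p = 5.92e-04, edgeR). Jund, which is less dependent on stimulation, was at 278, 169, 247 and 208 CPM in basal cells, 836, 307, 488 and 369 CPM in progenitors and 549, 264, 322 and 339 CPM in hormone-sensing cells. Its basal values all lay below the progenitor values, with a difference of -1.34 (95% interval -1.65 to -1.03). In progenitors corn oil 1 held more than 2 times the Jund level of corn oil 2, so the control libraries spanned both 4OHT values.

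**Figure D3:**
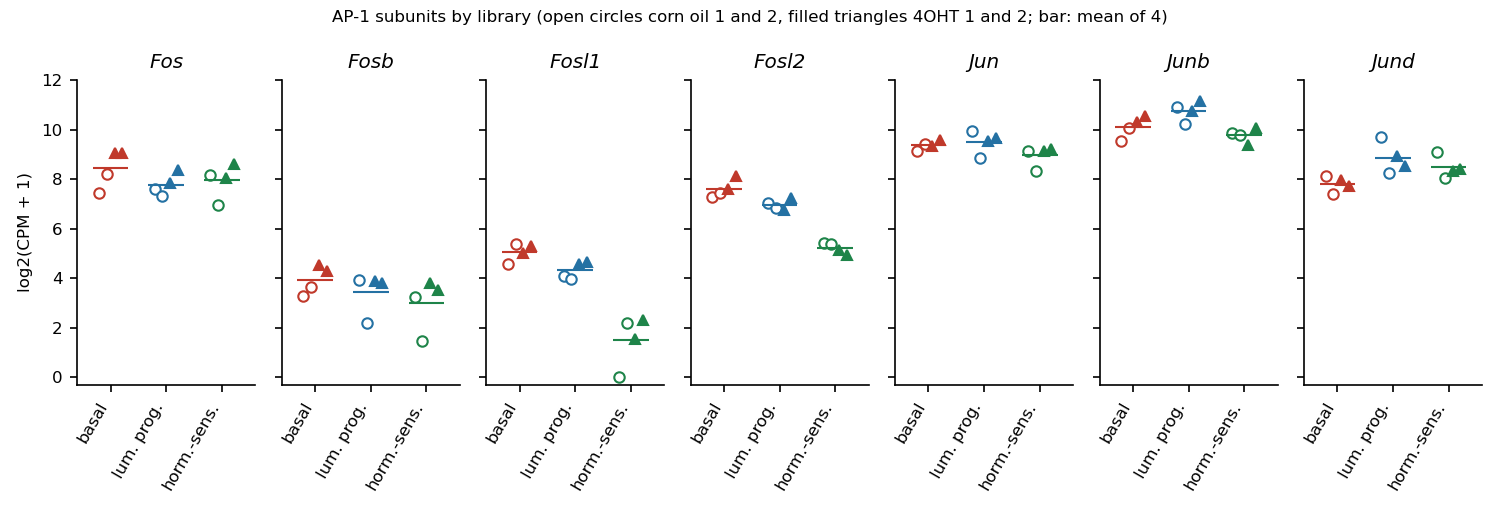
The 7 AP-1 subunits as log2(CPM + 1) in each library (open circles corn oil 1 and 2, filled triangles 4OHT 1 and 2) of the basal, luminal progenitor and hormone-sensing classes, with the mean of 4 libraries as a bar. Fosl1 and Fosl2 drop in hormone-sensing cells, and Fos in basal cells is higher in both 4OHT libraries (530.4 and 535 CPM) than in both corn oil libraries (171 and 298 CPM).

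The early growth response genes Egr1 to Egr3 encode zinc-finger transcription factors, and all were highest in basal cells. Egr1 was at 85.8, 143, 315 and 219 CPM in basal cells, 56.7, 49.9, 74.6 and 94.8 CPM in luminal progenitors and 12.3, 18.8, 10.9 and 34.3 CPM in hormone-sensing cells. Hormone-sensing values lay below all others, and Egr1 in basal cells was higher by 1.11 than in progenitors (adjusted p = 7.07e-04, edgeR) and by 3.22 than in hormone-sensing cells. Egr2 was at 29.2, 12.7, 23.4 and 9.41 CPM in basal cells and 0.963, 1.32, 1.43 and 0.966 CPM in progenitors, without overlap. The difference was 3.66 (95% interval 3.07 to 4.25), and hormone-sensing cells held a single Egr2 UMI, which gives a basal ratio of 135.8 with a counting interval of 24.3 to 5373. Egr3 was at 6.05, 7.04, 7.07 and 5.31 CPM in basal cells and 2.06, 3.8, 1.07 and 1.13 CPM in progenitors, a log2 difference of 1.48, with 2 UMIs in hormone-sensing cells. The progenitor minus hormone-sensing calls of Egr2 and Egr3 rest on these few UMIs: without corn oil 2 neither passed, and without 4OHT 2 that of Egr2 did not.

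The nuclear receptors Nr4a1 (Nur77) and Nr4a2 (Nurr1) need no ligand and are regulated mainly by their own induction. Nr4a1 was at 93.3, 198, 198 and 301 CPM in basal cells, 138, 81.9, 128 and 178 CPM in progenitors and 22.4, 20, 10.9 and 46.9 CPM in hormone-sensing cells. Basal and progenitor ranges overlapped (0.26, adjusted p = 0.3901, edgeR), while both lay above all hormone-sensing values, by 2.98 and 2.72. Without corn oil 1 the basal minus progenitor difference was 0.59 and passed, and without corn oil 2 it was -0.020. Nr4a2 was at 23.8, 21.9, 32.2 and 47.8 CPM in basal cells and 6.33, 3.63, 4.64 and 7.73 CPM in progenitors, a non-overlapping difference of 2.19. Hormone-sensing cells had 5 Nr4a2 UMIs in all, a basal ratio of 44.0 (counting interval 18.8 to 135.8).

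Atf3, a stress-induced bZIP repressor, was at 329, 531, 549 and 499.5 CPM in basal cells, 435, 249.97, 309 and 437 CPM in progenitors and 292, 135, 136 and 345 CPM in hormone-sensing cells. It was higher in basal cells and in progenitors than in hormone-sensing cells, by 1.17 and 0.96, whereas basal minus progenitor was 0.21 (adjusted p = 0.462, edgeR) and turned to -0.058 without corn oil 2. Maff, a small Maf protein without an activation domain, was at 358, 167, 402 and 175 CPM in basal cells, 290.3, 135, 309 and 154 CPM in progenitors and 94.8, 66.5, 99.2 and 38.2 CPM in hormone-sensing cells. In all 3 classes the level of Maff was higher in the libraries numbered 1 than in those numbered 2, whatever the treatment. The same held for Dusp6, and for Arc, which had few UMIs in hormone-sensing cells. Basal cells and progenitors both exceeded hormone-sensing cells, by 1.83 and 1.81. Myc, which drives growth and biosynthesis, was at 129, 83.96, 146 and 84.2 CPM in basal cells, 79.7, 50.6, 93.9 and 59.1 CPM in progenitors and 24.7, 27.1, 37.3 and 24.4 CPM in hormone-sensing cells, again lowest in the last class without overlap. It was higher than there by 1.91 in basal cells and 1.54 in progenitors. Its basal excess over progenitors, 0.37 (adjusted p = 0.0317, edgeR), was between 0.31 and 0.36 and no longer passed when any 1 library was left out.

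The Krüppel-like factors did not share an order. Klf4 was at 56.8, 58.7, 61.5 and 124 CPM in basal cells, 16.4, 35.4, 28.3 and 22.5 CPM in luminal progenitors and 46.3, 49.4, 33.5 and 47.2 CPM in hormone-sensing cells, and its basal values lay above all others. It was higher in basal cells by 1.26 than in progenitors (95% interval 0.78 to 1.73). Klf2 was at 12.7, 26.5, 8.25 and 15.5 CPM in basal cells, 4.95, 5.45, 4.05 and 2.898 CPM in progenitors and 18.5, 15.3, 10.3 and 34.3 CPM in hormone-sensing cells. Progenitors were lowest without overlap, 1.49 below basal cells and 1.89 below hormone-sensing cells. Klf6 had the opposite pattern, at 226, 256, 345 and 301 CPM in basal cells, 872, 453, 919.98 and 873 CPM in progenitors and 261, 202, 377 and 328 CPM in hormone-sensing cells. Every progenitor value was above every value elsewhere, and the differences were -1.71 (basal minus progenitor) and 1.67 (progenitor minus hormone-sensing). Klf10, at 24.8 to 80.0 CPM over the 12 sums, was higher in basal cells than in the other classes, by 0.43 and 0.94, and higher in progenitors than in hormone-sensing cells by 0.52. The first of these calls of Klf10 was lost without corn oil 2 (0.43), 4OHT 1 (0.40) or 4OHT 2 (0.22), and the last without corn oil 1 (0.38) or 4OHT 1 (0.34).

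Several feedback regulators differed strongly between classes. Rgs2, which shortens G-protein signalling through Gq, was at 45.1, 111, 195 and 252 CPM in basal cells, 2.34, 3.97, 4.999 and 4.67 CPM in luminal progenitors and 23.1, 12.9, 16.1 and 40.9 CPM in hormone-sensing cells. No values overlapped between classes, and Rgs2 was 4.82 higher in basal cells than in progenitors (SE 0.30, adjusted p = 1.15e-09, edgeR) and 2.24 higher in hormone-sensing cells than in progenitors. Socs3, an inhibitor of cytokine signalling through JAK and STAT proteins, was at 191, 260.5, 505 and 210.1 CPM in basal cells, 24.6, 33.04, 21.7 and 28.3 CPM in progenitors and 239, 148, 230.5 and 413 CPM in hormone-sensing cells. Progenitors were again lowest without overlap, by 3.11 against basal cells and 2.96 against hormone-sensing cells, and basal and hormone-sensing values overlapped (0.15, adjusted p = 0.647, edgeR). Arc, better known from neurons as a regulator of the synaptic cytoskeleton, was at 164, 160.4, 179.7 and 131 CPM in basal cells and 9.36, 4.13, 11.2 and 3.86 CPM in progenitors. The difference was 4.27 (SE 0.23, adjusted p = 2.58e-10, edgeR), and hormone-sensing cells held 22 Arc UMIs against 4307 in basal cells, a ratio of 51.1 (counting interval 33.7 to 81.7). Basal markers in hormone-sensing cells summed to 53.5 to 121 CPM, against 5571 to 7540 CPM in basal cells, and whether Arc UMIs there come from free RNA was not tested.

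The Dusp phosphatases inactivate MAP kinases, and different members led in different classes. Dusp1, a nuclear phosphatase, was at 208, 224, 219 and 359.6 CPM in basal cells, 67.3, 60.5, 59.4 and 71.6 CPM in luminal progenitors and 30.8, 36.5, 28.3 and 32.7 CPM in hormone-sensing cells. Its 3 ranges did not overlap, with differences of 1.67 (basal minus progenitor) and 1.27 (progenitor minus hormone-sensing). Dusp6, which acts on ERK in the cytoplasm, was at 128, 81.5, 157 and 92.3 CPM in basal cells, 37.98, 15.2, 33.6 and 22.2 CPM in progenitors and 17.7, 10.6, 19.96 and 8.66 CPM in hormone-sensing cells. It was higher in basal cells by 1.83 and 3.04, without overlap. Dusp5, which acts on ERK in the nucleus, was instead highest in progenitors, at 77.2, 63.1, 85.8 and 94.8 CPM, against 20.5, 19.3, 22.2 and 31.6 CPM in basal cells and 4.63, 7.06, 3.22 and 8.27 CPM in hormone-sensing cells. All progenitor values lay above all others, by 4.02 against hormone-sensing cells (SE 0.22, adjusted p = 1.46e-09, edgeR), and basal minus progenitor was -2.06. The ERK phosphatases Dusp5 and Dusp6 thus differed between the same 2 classes in opposite directions. The directions did not follow location in the cell, as nuclear Dusp1 went with cytoplasmic Dusp6.

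The Gadd45 proteins, which accompany growth arrest and stress kinase signalling, also divided between classes. Gadd45g was at 396, 713, 1441 and 1459 CPM in basal cells, 104, 90.7, 107 and 145 CPM in luminal progenitors and 519.6, 439, 601 and 1073 CPM in hormone-sensing cells. Progenitors were lowest without overlap, 2.76 below basal cells (95% interval 2.29 to 3.24) and 2.23 below hormone-sensing cells. Under stricter keratin gates the basal mean of Gadd45g was 1572 CPM instead of 1002. Gadd45b was at 345, 491, 1003 and 772 CPM in basal cells, 2045, 715, 3103 and 2129 CPM in progenitors and 269.8, 347, 547 and 330.4 CPM in hormone-sensing cells. The progenitor level in corn oil 2 was less than the basal level in both 4OHT libraries, so these classes overlapped, and the difference of -1.89 (basal minus progenitor) passed. Gadd45a was highest in the hormone-sensing class, at 887, 824, 577 and 606 CPM, followed by 413, 300.03, 338 and 466 CPM in progenitors and 191, 226, 236 and 214 CPM in basal cells. The 3 ranges did not overlap, with basal minus hormone-sensing at -1.75 and progenitor minus hormone-sensing at -0.68, or -0.43 without corn oil 2.

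Of the immediate early response genes Ier2, Ier3 and Ier5, the last separated luminal progenitors most. Ier5 was at 666, 403, 552 and 659 CPM in progenitors, 108, 148, 124 and 171 CPM in basal cells and 97.9, 97.1, 107 and 109.9 CPM in hormone-sensing cells. Progenitor values were above all others, by 2.72 against hormone-sensing cells, and basal minus progenitor was -2.32 (SE 0.18, adjusted p = 1.36e-08, edgeR). Ier3, a stress-induced survival protein, was at 1524, 1380.5, 1351 and 1874 CPM in basal cells, 1646, 1181, 1891 and 1816 CPM in progenitors and 381, 424, 478 and 364 CPM in hormone-sensing cells. It was lower in the last class without overlap, by 1.86 and 2.22, and basal minus progenitor was -0.36 (adjusted p = 0.0755, edgeR), which passed without corn oil 2 (-0.48) or 4OHT 2 (-0.45). Ier2 was at 122, 184, 114 and 226 CPM in basal cells, 65.1, 122, 84.4 and 129 CPM in progenitors and 59.4, 68.8, 39.9 and 57.9 CPM in hormone-sensing cells. It was lowest in hormone-sensing cells, by 1.47 and 1.06, and its basal excess over progenitors of 0.41 did not pass without corn oil 1 (0.34), corn oil 2 (0.40) or 4OHT 2 (0.32).

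Zfp36 and Zfp36l1 bind AU-rich mRNA and speed its decay, and Btg1 and Btg2 are antiproliferative proteins that recruit a deadenylase. Zfp36 was at 119, 204, 406 and 259 CPM in basal cells, 275, 182, 228 and 304 CPM in progenitors and 50.9, 65.9, 50.2 and 91.3 CPM in hormone-sensing cells. Basal and progenitor ranges overlapped (-0.36, adjusted p = 0.245, edgeR), without 4OHT 1 the difference was -0.75 and passed, and both were above hormone-sensing cells, by 1.85 and 2.20. Zfp36l1 was at 366, 545, 411 and 364 CPM in basal cells, 544, 729.7, 359 and 434 CPM in progenitors and 211, 294, 248 and 211 CPM in hormone-sensing cells, lowest in the last by 1.32 against progenitors. Btg2 was at 273, 541, 455 and 978 CPM in basal cells, 312, 284, 287 and 504 CPM in progenitors and 206, 130.00, 159.7 and 204 CPM in hormone-sensing cells. It was higher in basal cells and progenitors than in hormone-sensing cells, by 1.57 and 1.2, and basal minus progenitor was 0.37 (adjusted p = 0.142, edgeR), which passed at 0.58 without corn oil 1. Btg1 was at 1666, 1044, 1341 and 1151 CPM in progenitors, 655, 591, 834 and 849.7 CPM in hormone-sensing cells and 530.5, 343, 483 and 378 CPM in basal cells. The 3 ranges of Btg1 did not overlap, with basal minus progenitor at -1.86 and progenitor minus hormone-sensing at 1.06. Rhob, a small GTPase, had log2 differences of at most 0.63 in size. Mcl1, an anti-apoptotic BCL2 protein, was lower in basal cells than in progenitors (-0.94) and hormone-sensing cells (-0.62), without overlap.

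The treatment comparison asked whether these genes differed between libraries labelled 4OHT and corn oil within each class. In basal cells, 14 of 37 tested members were higher in both 4OHT libraries than in both corn oil libraries, where 13% of 10788 genes were, and 0 were lower in both, where 17.6% of genes were. Gadd45g (396 and 713 CPM in corn oil, 1441 and 1459 CPM in 4OHT) had a log2 difference of 1.42 (SE 0.34), Gadd45b (345 and 491, then 1003 and 772 CPM) 1.11 (SE 0.27) and Egr1 (85.8 and 143, then 315 and 219 CPM) 1.24 (SE 0.32). Their adjusted p were 0.914, 0.934 and 0.954 (edgeR), so none passed. Fos differed by 1.22 (95% interval 0.43 to 2.01), Junb by 0.66 (-0.04 to 1.36) and Jun by 0.22 (-0.41 to 0.86), none past the threshold. Jun, whose groups overlapped, was at -0.025 without 4OHT 2, and Junb was between 0.39 and 1.02 when 1 library was left out.

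In this test, which does not use the replicate number, no member passed in any class, and hardly any gene did. In basal cells 0 of 10788 genes (0%) had an adjusted p under 0.05 in edgeR, with 465 (4.31%) at an unadjusted p under 0.05, among them 8 members, all with differences above 0: Gadd45g, Gadd45b, Egr1, Fos, Fosb, Rgs2, Zfp36 and Nr4a2. DESeq2 called 38 genes and 1 member, Gadd45g (adjusted p = 0.0182). With the replicate number as a block, edgeR called 167 of 10788 genes and 9 of 37 members, though no label names a shared batch. Members had a median log2 difference of 0.29, with 32 of 37 above 0, where all genes had a median of -0.02 and 48.1% above 0. Leaving out 1 library leaves an arm of 1, which is then assumed to vary like the other arm, so calls in such fits have no replicate check in that arm. In these fits the median of members was 0.54 without 4OHT 1, 0.64 without corn oil 2, 0.39 without corn oil 1 and 0.20 without 4OHT 2. The medians of all genes were -0.04, 0.02, 0.03 and -0.01. The Gadd45g difference was 1.02 without corn oil 1 and 2.0 without corn oil 2, and that of Fos 0.83 and 1.77. On simulated counts of this 2 against 2 design, 1.5% of genes changed by a log2 of 1 and 68% of those changed by 2 were recovered, with 2 and 25 false calls, so a difference near 1 was rarely detectable.

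Depth, heat shock genes and markers of other cells were measured in the same basal cells. The median depth was 5152.5, 3172, 3850 and 2827.5 UMIs per cell, and thinning each cell to 2000 UMIs gave differences of 1.34 for Gadd45g and 1.16 for Fos. The 14 heat shock genes, another group known to respond to cell preparation, summed to 16452, 20197, 19438 and 18237 CPM, with 1 of 14 higher in both 4OHT libraries. Leukocyte markers stayed at or below 3.20 CPM, endothelial markers at or below 61.3 CPM and fibroblast markers at or below 70.4 CPM, with Ptprc at 0 in all 4 libraries and no list higher in both 4OHT libraries. The part of cell preparation in the treatment values was not tested.

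In luminal progenitors 9 of 36 tested members were higher in both 4OHT libraries, where 7.33% of 10120 genes were, and 4 were lower in both, where 17.5% were. The 3 members of smallest p were Egr1 at 0.77 (SE 0.29), Fos at 0.77 (SE 0.31) and Fosl1 at 0.70 (SE 0.30), each with an adjusted p of 1.00 (edgeR). Junb differed by 0.46 and Jun by 0.19. Without corn oil 2, Junb was at 0.12 and Jun at -0.27, and without corn oil 1 at 0.92 and 0.89. Fos ranged from 0.42 without 4OHT 2 to 1.06 without 4OHT 1. The median difference of members was 0.27 with all libraries, 0.69 without corn oil 1 and 0.04 without corn oil 2. Over all genes it was -0.02, 0.03 and 0.003. Of all genes, 0 (0%) passed edgeR and 166 (1.64%) had an unadjusted p under 0.05, with 3 members among them, and DESeq2 called 1 gene and no member. Corn oil 2 was the lowest progenitor library for Jun, Junb, Klf6 and Gadd45b, and corn oil 1 held 988 CPM of Jun, above both 4OHT libraries.

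In hormone-sensing cells 6 of 32 tested members were higher in both 4OHT libraries, where 17% of 7589 genes were, and 4 were lower in both, where 13.5% were. The 3 of smallest p were Gadd45g at 0.78 (SE 0.31), Gadd45a at -0.57 (SE 0.23) and Klf6 at 0.57 (SE 0.25), each with an adjusted p of 1.00 (edgeR). Gadd45a was the 1 of these with lower values in 4OHT, at 577 and 606 CPM against 887 and 824 CPM. Fos differed by 0.68, Jun by 0.36 and Junb by -0.10. Without 4OHT 1, whose hormone-sensing cells carried fibroblast markers, the differences were 1.15 for Gadd45g, -0.51 for Gadd45a, 0.49 for Klf6, 0.95 for Fos, 0.42 for Jun and 0.21 for Junb. In that fit the median difference was 0.24 over the members and -0.03 over all genes. Gadd45g was at 0.26 without 4OHT 2, Fos ranged from 0.27 without corn oil 2 to 1.29 without corn oil 1, and Jun from 0.085 to 0.73 without the same libraries. A single gene of 7589 (0.0132%) passed edgeR, Ctsr, named after its values were seen and not a member, with 240 (3.16%) at an unadjusted p under 0.05. DESeq2 called 7 genes and no member.

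Whether treatment differences themselves differed between basal cells and progenitors was tested as an interaction. None of 11998 genes (0%) passed in edgeR, none in DESeq2, and 494 (4.12%) had an unadjusted p under 0.05. Gadd45g was the 1 member among them, with a difference of 1.00 between the classes (95% interval 0.29 to 1.72, adjusted p = 0.9997, edgeR). It was 0.40 without corn oil 1 and 1.64 without corn oil 2. Over the members, the median interaction was 0.19, but -0.17 without corn oil 1 and 0.58 without corn oil 2. The medians of all genes in these 3 fits were -0.02, -0.02 and -0.05. The interaction of Fos was 0.44 (-0.40 to 1.29) and that of Junb 0.19 (-0.50 to 0.88).

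**Figure D4:**
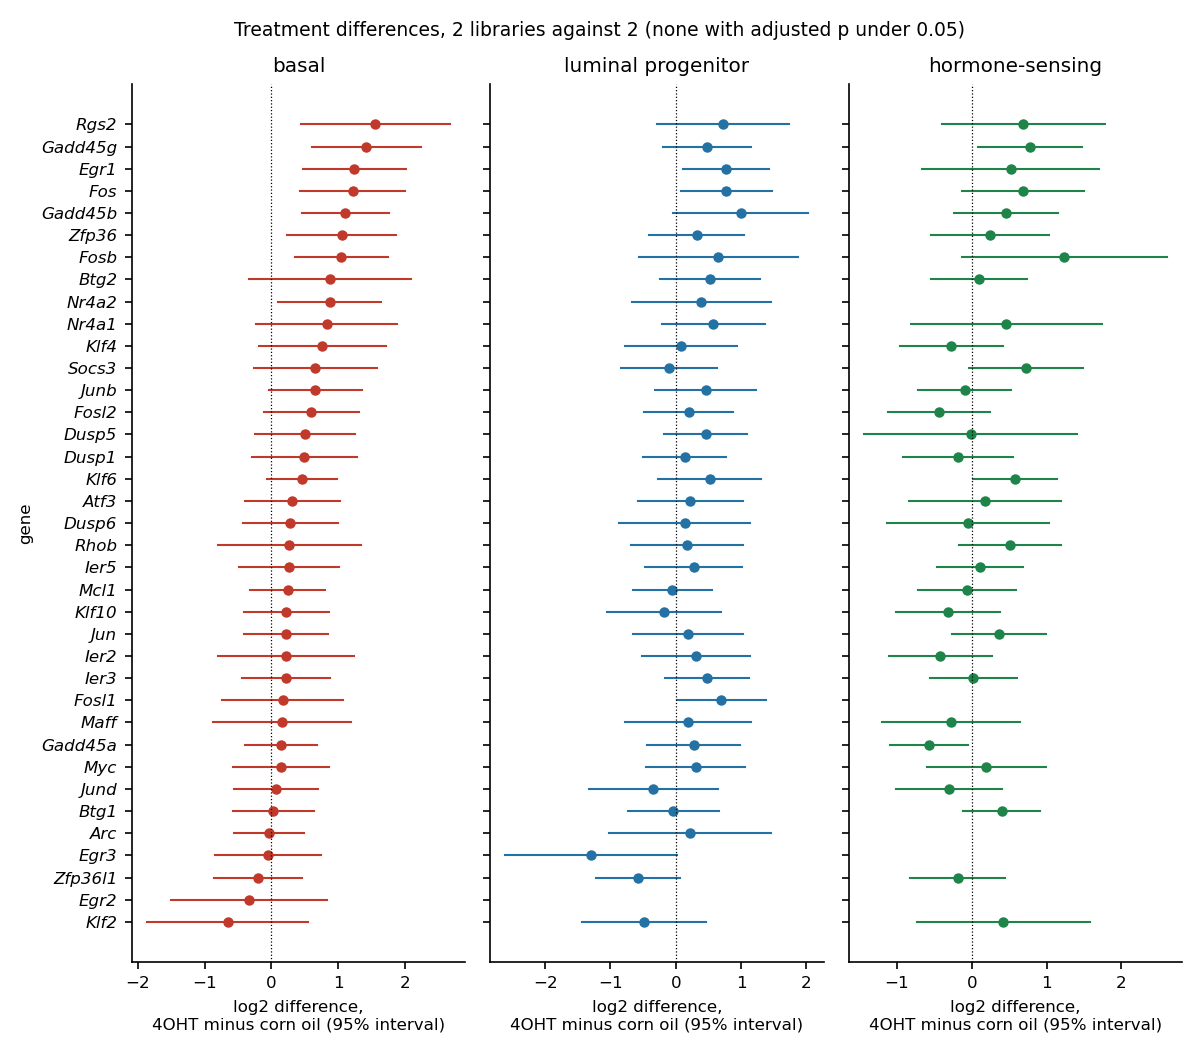
Log2 differences of 4OHT minus corn oil with 95% intervals for each tested member in basal, luminal progenitor and hormone-sensing cells, 2 libraries against 2, ordered by the basal value. In basal cells Rgs2 (1.56) and Gadd45g (1.42) lie farthest to the right. In this fit without a replicate block, no member had an adjusted p under 0.05 in any class.

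Some members varied together from cell to cell. Each cell was thinned to 2000 UMIs, shallower cells were left out (34, 183, 111 and 379 basal cells), and Pearson correlations of log2(count + 1) were computed within each library and class. These are descriptions of cells that share a library and its free RNA. Most pairs were weakly correlated: the median over pairs of the mean r was 0.046 in basal cells, 0.023 in progenitors and 0.035 in hormone-sensing cells. In basal cells 36 of 703 pairs had r of at least 0.2 in all 4 libraries, and they involved 14 genes. Pairs of other genes were not computed, so these counts have no background. Gadd45g had 10 such partners, Junb 9, Nr4a1 8, and Fos and Gadd45b 7 each. The highest mean was that of Gadd45b and Gadd45g, with r of 0.381, 0.481, 0.494 and 0.449 in corn oil 1, corn oil 2, 4OHT 1 and 4OHT 2. Zfp36 and Socs3 followed at 0.397, 0.376, 0.575 and 0.398, and Btg2 and Nr4a1 at 0.364, 0.429, 0.433 and 0.452. Fos and Egr1 were at 0.340, 0.296, 0.588 and 0.412, higher in both 4OHT libraries than in both corn oil libraries, a difference that was not tested. The basal pairs joined Fos and Junb with feedback regulators. Arc was paired with Gadd45g and Nr4a1, and Rgs2 with Gadd45g, while Jun, Jund, Fosb, Fosl1 and Fosl2 had no such partner.

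Luminal progenitors gave 8 pairs among 10 genes. Jun was correlated with Klf6 (mean r 0.337), Junb (0.308) and Ier5 (0.297), where the basal means of these pairs were 0.163, 0.208 and 0.153, and the difference was not tested. Junb was correlated with Gadd45b (0.396) and Zfp36 (0.339). Atf3 with Nr4a1 (0.335), Fos with Egr1 (0.340) and Fos with Nr4a1 (0.260) completed the list. Gadd45b and Gadd45g, the leading basal pair, had a mean r of -0.0059 in progenitors. Gadd45g was seen there in 10.0% to 12.8% of thinned cells, against 24.9% to 44.4% in basal cells. Ier3 and Gadd45b had mean r of -0.116 in basal cells, 0.283 in progenitors and 0.235 in hormone-sensing cells. In hormone-sensing cells 5 pairs passed among 8 genes, led by Socs3 and Gadd45g (0.384) and Fos and Socs3 (0.313). No pair passed in all 3 classes, and 8 did in 2 of them. Thinning to 1000 UMIs left 15, 2 and 0 pairs in the 3 classes.

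**Figure D5:**
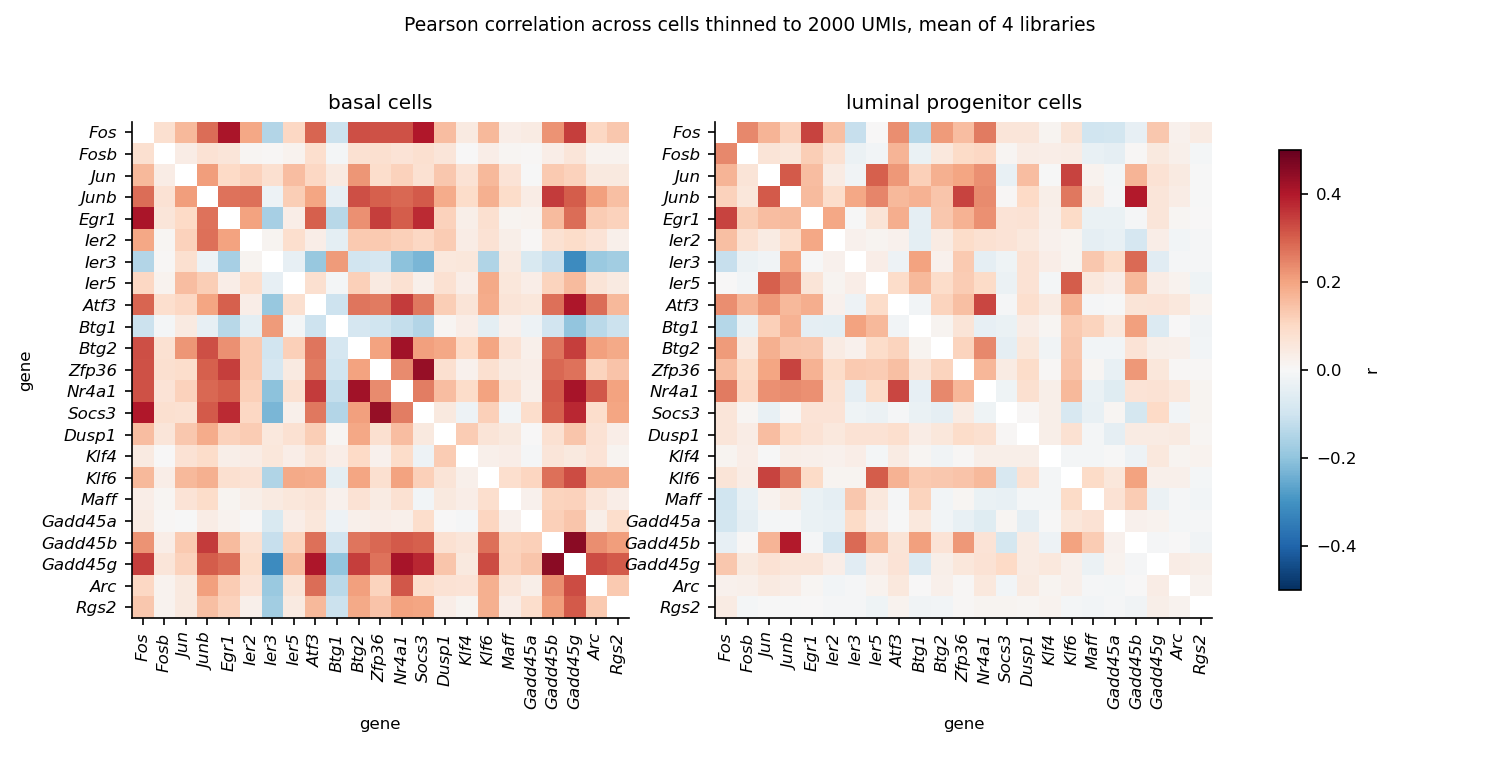
Mean over 4 libraries of the Pearson correlation between members across cells thinned to 2000 UMIs, in basal cells (left) and luminal progenitors (right), red for r above 0 and blue below. Basal cells show a block joining Fos, Egr1, Junb, Btg2, Zfp36, Nr4a1, Socs3, Gadd45b and Gadd45g, and progenitors show Jun with Junb, Ier5 and Klf6 and Junb with Gadd45b (0.396).

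Genes around the members were taken from 4 lists chosen by known function. Of 29 genes that signal to immediate early promoters, 10 were higher in basal cells than in progenitors and 9 lower, beside 29.5% and 26.6% of all genes, with a median of 0.10. The smallest p were those of Elk3, an ETS partner of serum response factor (2.36), Creb1 (-0.93), the MEK gene Map2k1 (0.81) and Braf (0.92). Against hormone-sensing cells, 12 of the 29 were higher and 5 lower in basal cells, beside 32.4% and 27.3% of all genes. In progenitors 9 were higher and 4 lower, beside 24.6% and 21.9%. The shares of all genes are the same for the lists that follow. Among 16 tested bZIP partners of AP-1, 5 were higher in basal cells and 5 lower, led by Maf (4.05), Nfe2l2 (1.06), Mafk (-1.16) and Ddit3 (1.22). Against hormone-sensing cells these partners were higher in 13 and lower in 1 in basal cells, and higher in 12 and lower in 1 in progenitors. Of 35 tested other early response genes, 15 were higher in basal cells than in progenitors and 12 lower, among them Klf5 (-2.75), Nfil3 (2.55), Dusp8 (-2.73) and Id3 (2.33). They too were mostly higher than in hormone-sensing cells, 23 against 5 in basal cells and 22 against 5 in progenitors. Of the 14 heat shock genes, 5 were higher in basal cells than in progenitors and 3 lower, 5 and 1 against hormone-sensing cells in basal cells, and 5 and 1 in progenitors. The summed level of this list was highest in corn oil 1 progenitors, at 21186 CPM. No gene of the 4 lists passed the treatment comparison in any class (edgeR).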

How the data were processed

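Single-cell 3′ RNA libraries (10x) of mammary epithelium were compared, 2 from mice given corn oil and 2 from mice given 4OHT. The authors deposited whole-number UMI counts for every gene in each barcode, not normalized, made with Cell Ranger 3.0.1 on mm10, per the submitters' processing notes. Totals ran from 17351950 to 22017878 counts per library, and intervals of count ratios cover counting error only.

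Cells with at least 1000 UMIs were gated on raw counts: basal with at least 5 UMIs of Krt5, Krt14, Krt17 and Acta2 and more than 3 times those of Krt8, Krt18 and Krt19, luminal with the reverse. Luminal cells with at least 3 UMIs of Ly6d, Fxyd2 and Gpx3, and more than of Wfdc18, Csn3 and Ltf, were hormone-sensing, the others progenitors. No doublet caller was run. UMI sums per library and class were tested with edgeR 4.0.16 (R 4.3.3; TMM factors, filterByExpr, quasi-likelihood test, Benjamini-Hochberg adjustment over all tested genes, threshold 0.05): classes over 12 sums with the library as a block, treatment as 2 against 2 libraries within a class, and their interaction. Because each mouse gave 1 library, p-values of the treatment tests measure the spread between libraries. Those of the class and interaction tests measure the spread that remains once the library block is taken out. DESeq2 1.42.0 was an alternative. Cells were thinned to 2000 UMIs for correlations, and a pair was counted at r of at least 0.2 in all 4 libraries. The edgeR steps were tested on simulated data: with classes, 66.5% of genes changed by a log2 of 1 were recovered (9 false calls among 10868 genes). Only 200 genes were changed there, whereas 56.1% of genes differed between basal cells and progenitors. These values thus do not measure recovery in the class comparison itself.

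The members and lists were chosen with earlier results of these data known. Named by rule were all AP-1 subunits, other set members, members past a class threshold with a log2 difference of at least 1 in size, Fos, Jun and Junb with the 3 members of smallest p per class for treatment, and the 4 genes of smallest p per list. Alternatives covered scaling, filters on low counts, cell depth, mitochondrial share, gates, thinning, DESeq2, a replicate block and leaving out each library. Promoter sequences are from RefSeq (GRCm38.p6), which had entries for 31 members.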

Additional observations from a re-analysis of the deposited data

Results flagged for a closer look

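The cells left in no class entered none of the comparisons, and 5 of 38 members were higher there in both 4OHT libraries than in both corn oil libraries, as were 9.47% of 11688 genes with more than 3 UMIs in both libraries of a group. Another 2 were lower in both, as were 24% of genes: Zfp36l1, at 387 and 549 CPM in corn oil 1 and 2 and 254 and 258 CPM in 4OHT 1 and 2, and Socs3, at 106 and 108.9, then 91.8 and 91.7 CPM. Ier3 was at 1679 and 1592 CPM in corn oil 1 and 2 and at 1923 and 2702 CPM in 4OHT 1 and 2, a 4OHT mean of 2312. Gadd45b was at 289 and 336 CPM, then 403 and 581 CPM, a 4OHT mean of 492. Klf4 was at 48.0 and 60.1 CPM, then 68.1 and 98.6 CPM, a 4OHT mean of 83.3. Rgs2 was at 22.8 and 20.7 CPM, then 27.9 and 35.9 CPM, a 4OHT mean of 31.9. Fosb was at 7.21 and 9.69 CPM, then 11.1 and 26.4 CPM, a 4OHT mean of 18.8. These differences were not tested. The cells in no class included 342, 284, 837 and 873 with at least 5 UMIs of both keratin groups.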

How the results depend on the processing

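No called log2 difference of a member changed sign under any alternative, and of 66 called class differences of at least 1 in size, 2 lost the call under some alternative: Egr2 and Egr3 in progenitors against hormone-sensing cells. Of 37 members tested, those called stayed between 24 and 28 (basal minus progenitor), 25 and 31 (basal minus hormone-sensing) and 31 and 33 (progenitor minus hormone-sensing) without any 1 library. Beside them, 5373 to 5900, 5811 to 6342 and 4157 to 4802 genes were called, of 11175 to 11235 tested. Upper quartile scaling moved the median of all genes in basal minus hormone-sensing from 0.08 to -0.07. It gave 12 of 37 members higher and 13 lower in basal cells than in progenitors, beside 3037 higher and 3236 lower of 11135 genes.

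Genes called fell to 2642, 2936 and 2488 in the 3 class comparisons with a mean of at least 20 CPM, where fewer genes were tested, and without 1 library were 5373 to 5900, 5811 to 6342 and 4157 to 4802. For treatment in basal cells, 93 genes and 5 members passed with no filter, 38 and 1 with DESeq2, and 17 to 127 genes and 0 to 4 members without 1 library. In progenitors these were 39 genes with no filter, 1 with DESeq2, and 31 to 64 genes and 0 to 1 member without 1 library. In hormone-sensing cells they were 59 with no filter, 7 with DESeq2, 0 with a mean of 20 CPM, 0 with at least 2000 UMIs, 0 after thinning, and 4 to 80 without 1 library. The interaction gave 39 with no filter, 1 after thinning and 2 to 12 without 1 library. The cause was not tested.

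With a replicate block, the treatment comparison gave 167 of 10788 genes and 9 of 37 members in basal cells (Fos, Gadd45g, Gadd45b, Egr1 and Junb among them). It gave 9 of 10120 genes in progenitors, 3 of 7589 in hormone-sensing cells and 7 of 11998 for the interaction, with no member among them. Same-numbered libraries correlated in their deviations at 0.559, 0.317 and 0.220 in the 3 classes. No label names a shared batch, there are 2 pairs, and what the same-numbered libraries share was not tested.

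Among differences that did not pass, signs turned for Maff in basal minus progenitor (-0.048 with upper quartile scaling, -0.010 with at least 2000 UMIs, -0.049 to 0.0091 without 1 library), Zfp36 (0.046 with stricter gates), Atf3 (-0.058 to 0.45 without 1 library), Fosb (-0.11 to 0.59) and Nr4a1 (-0.020 to 0.59). In basal minus hormone-sensing they turned for Socs3 (-0.0034 with upper quartile scaling, -0.28 to 0.47 without 1 library), Rhob (-0.025 to 0.22) and Klf6 (0.047 with no filter, 0.26 with stricter gates, 0.10 after thinning), and in progenitor minus hormone-sensing for Fos (-0.031, -0.10 and -0.12 with upper quartile scaling, a mean of 20 CPM and stricter gates, -0.027 to 0.17 without 1 library). For treatment, Jun ranged from -0.025 to 0.45 in basal cells and -0.27 to 0.89 in progenitors, and Junb from -0.50 to 0.21 in hormone-sensing cells, without 1 library. Correlated pairs numbered 15, 2 and 0 when thinned to 1000 UMIs, and 22 and 15 unthinned in progenitors and hormone-sensing cells. Depth limits hormone-sensing cells most, where a count of 0 allows up to 2.31 CPM in corn oil 1.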
